A study of Mus musculus with 28 samples.

Results

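Chemically induced endodermal progenitor cells (ciEPCs) grown from mouse embryonic fibroblasts were compared directly with ciEPCs grown from neonatal dermal fibroblasts. Libraries were chosen by their labels alone: 11 of the 28 RNA-seq libraries of the series, 9 from embryonic fibroblasts (MEF_ciEPC) and 2 from neonatal fibroblasts (MNF_ciEPC). The series reprogrammed fibroblasts towards endoderm with chemicals and also holds the starting fibroblasts, hepatocyte-like cells (ciHeps) made from the ciEPCs, progenitors made from embryonic stem cells, the stem cells themselves and primary hepatocytes. The comparison asks which differences by fibroblast origin remain between the finished progenitors.

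The MEF_ciEPC libraries come from a pair of numbered cultures, read here from the titles as lines followed over time. Series 1 was sampled at passages 2, 3, 4, 6, 10 and 22, and series 2 at passages 1, 5 and 10. Their founders were fibroblasts of E13.5 embryos from carriers of an Oct4-GFP transgene on a CBA/CaJ X C57BL/6J background mated to 129Sv/Jae females. The MNF_ciEPC libraries are from passages 2 and 3, and their founders carried the same Oct4-GFP transgene on CBA/CaJ X C57BL/6J with no 129Sv/Jae in the label. All groups thus carry the transgene, and strain, age and tissue of the founder cannot be told apart. The source field of the MNF_ciEPC libraries names embryonic fibroblasts, while their title, description and cell type name neonatal ones, and the latter were followed. The labels do not say whether the 2 MNF_ciEPC libraries are separate inductions or 2 passages of 1 culture, so the spread between them may be technical. The p-values rest on a spread estimated over all 9 groups of the fit. Passages of 1 MEF_ciEPC series were summed there, so the spread between passages does not enter.

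Definitive endoderm is the embryonic germ layer that gives rise to the gut tube, liver and pancreas. Its progenitors express transcription factors such as SOX17 and members of the FOXA and GATA families, which do not by themselves tell kinds of endoderm apart. Fibroblasts carry another identity, built on matrix genes and on a positional code of homeobox genes that records where in the body the cell arose.

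Values are CPM (library-size scaled counts) of single libraries, scaled by the TMM method, which sets libraries to a common level from the genes that differ least. For MEF_ciEPC the lowest, median and highest of 9 libraries are given, and for MNF_ciEPC both values, passage 2 first. A log2 difference is MNF_ciEPC minus MEF_ciEPC, given with its standard error. It comes from edgeR's quasi-likelihood test on all 16055 genes tested, in which the libraries of 1 series were summed to 1 sample. Calls needed a difference of at least 2-fold and a Benjamini-Hochberg adjusted p below 0.05.

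The libraries differed in technical ways that move with origin. The MEF_ciEPC libraries held 1439670 to 3352758 expected counts and an implied read length of 50.5 to 50.6 bases. The MNF_ciEPC libraries held 5931683 and 5100676 counts and an implied read length of 74.5 bases. Read length, depth and passage range therefore cannot be told apart from origin in this comparison. Over all tested genes the Pearson correlation of log2 CPM was 0.900 to 0.976 within MEF_ciEPC and 0.906 to 0.967 between MEF_ciEPC and MNF_ciEPC, and 0.988 between the 2 MNF_ciEPC libraries. One MEF_ciEPC library stood apart: at series 1 passage 2 the summed level of 7 fibroblast markers was 491 CPM, against at most 41.3 CPM in the other 8 libraries. That sum was 32.5 and 13 CPM in MNF_ciEPC. In bulk RNA, fewer cells of a type and less RNA per cell cannot be told apart.

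The core endoderm genes overlapped between ciEPCs of both origins. The summed level of 8 endoderm progenitor markers was 1960 to 3080 CPM in MEF_ciEPC, with a median of 2710 CPM, and 2590 and 2700 CPM in MNF_ciEPC. Gata4 was the most abundant of the 8, so the sum says little about the rarer ones. Sox17, a founding regulator of definitive endoderm, was at 279, 524 and 930 CPM in MEF_ciEPC and at 554 and 689 CPM in MNF_ciEPC. The groups overlapped, and the log2 difference was 0.36 ± 0.48, with a 95% interval from -0.65 to 1.38. Gata4, a zinc-finger factor of endoderm and heart, was at 905, 1190 and 1680 CPM and at 1120 and 1200 CPM, an interval from -1.16 to 0.88.

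The interval of Foxa2, the pioneer factor that opens liver and gut enhancers, ran from -1.07 to 0.87, that of Gata6 from -0.83 to 0.82 and that of Hnf4a, the central regulator of hepatocyte identity, from -0.49 to 1.14. Epcam, a surface glycoprotein of epithelia, was at 150, 211 and 471 CPM against 219 and 207 CPM. The epithelial cadherin gene Cdh1 was at 66.3, 224 and 490 CPM against 234 and 207 CPM. None of these 7 genes was called, and their intervals leave room for differences of about the size of the call threshold. Of 23 tested endoderm transcription factors 0 were called in either direction by edgeR's quasi-likelihood test, 0 by DESeq2 and 0 had an unadjusted p under 0.05, and their median log2 difference was -0.01 against -0.07 over all genes tested. Cxcr4, a surface receptor often used to sort definitive endoderm, was close to absent in both, with at most 0.447 CPM in MEF_ciEPC and 0 CPM in both MNF_ciEPC libraries. Foxa1 was low too, at 0.447, 1.36 and 2.61 CPM in MEF_ciEPC and at 0.314 and 1.08 CPM in MNF_ciEPC. Its interval ran from -2.11 to 0.09, and it was not called. In the progenitors made from stem cells Foxa1 had a mean of 60.6 CPM. The markers of hepatocytes (Alb at most 3.35 CPM) and of pluripotent cells (Pou5f1 at most 0.942 CPM, Nanog at most 1.1 CPM) were low in all 11 libraries. Parietal endoderm genes had a mean log2 CPM of 8.45 to 9.59 in MEF_ciEPC and of 9.16 and 8.67 in MNF_ciEPC. It was 4.50 and 4.59 in progenitors made from stem cells and 7.24 to 7.53 in fibroblasts. For mesendoderm genes it was -0.33 to 0.10, then -0.23 and -0.17, against 6.18 and 6.52 in those progenitors. Which kind of endoderm the ciEPCs resemble was not tested.

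Across all genes, 165 were higher in MNF_ciEPC (1.03% of those tested) and 510 were higher in MEF_ciEPC (3.18%), so 4.20% were called and 75.6% of the calls were higher in the embryonic origin. DESeq2 called more, 242 and 657 of the same genes, which is the background for its counts below. Counts at an unadjusted p under 0.05 are given for lists without a share over all genes, so nothing is read from them. The 9 and the 2 libraries did not overlap for 151 of the 165 genes (91.5%) and for 270 of the 510 (52.9%), against 12.1% of all tested genes. Of the genes higher in MEF_ciEPC, 45 had no count in either MNF_ciEPC library. The balance between the directions depended on the fit. With the 9 libraries as separate samples the counts were 166 and 210, and in limma voom, which changes the test as well as the weighing of libraries, they were 411 and 323 with the series as a random effect. The correlation fitted there within a series was -0.0362, so limma voom too weighed the passages almost as separate samples. With 1 MNF_ciEPC library left out the counts fell to 53 and 131 (without passage 2) or 48 and 74 (without passage 3). Without series 2 they were 53 and 355.

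**Figure D1:**
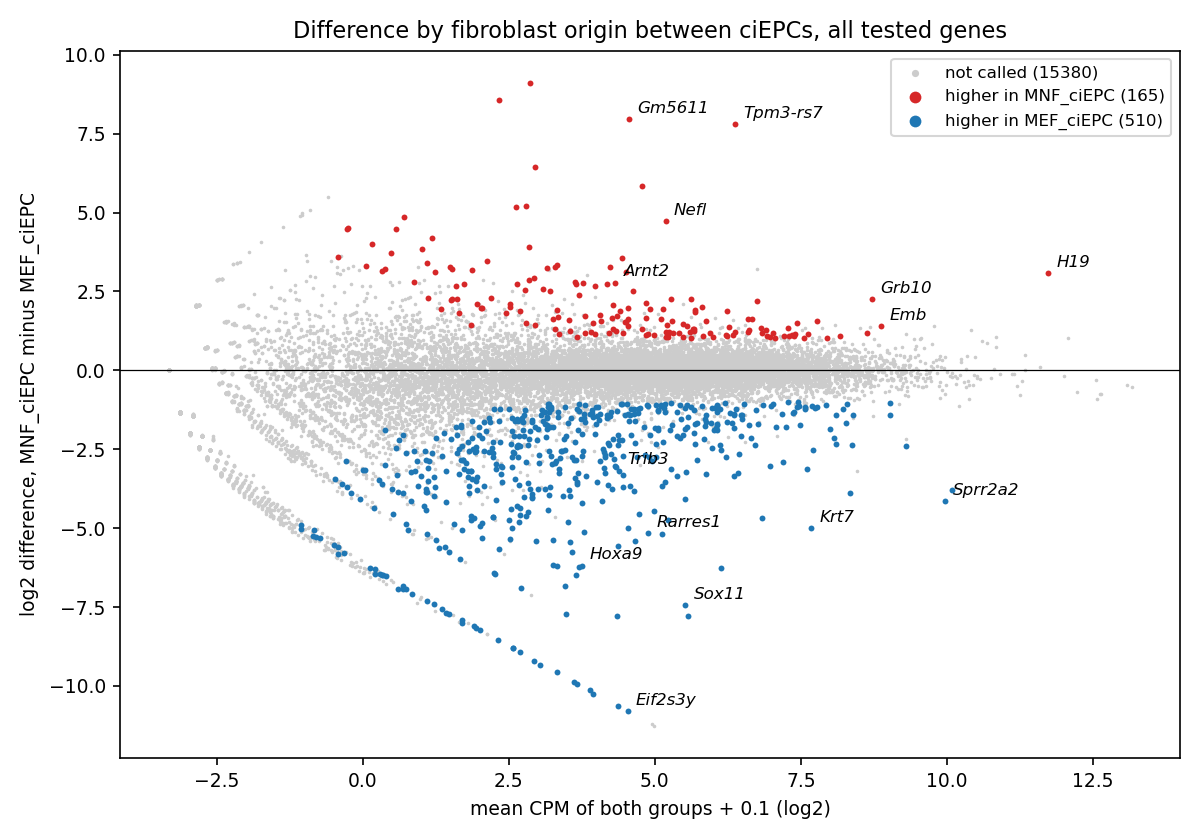
Each point is 1 of the 16055 genes tested. The horizontal axis is the log2 of the mean CPM of both groups plus 0.1, and the vertical axis is the log2 difference between MNF_ciEPC and MEF_ciEPC. Red points are the 165 genes called higher in MNF_ciEPC and blue points the 510 called higher in MEF_ciEPC. The straight lower edge holds genes with no count in MNF_ciEPC, whose fitted differences are no measure of size.

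Among the genes higher in MNF_ciEPC, the most abundant was H19, an imprinted long non-coding RNA expressed from the maternal copy beside Igf2 (chr7:142575529-142578143, minus strand, mm10). H19 was at 2.68, 174 and 3870 CPM in MEF_ciEPC and at 5880 and 6510 CPM in MNF_ciEPC. The groups did not overlap, but the gap was narrow at the early end: series 1 passage 3 reached 3870 CPM, while both passage 10 libraries lay at 6.11 and 2.68 CPM. The log2 difference was 3.09 ± 0.82, an 8.53-fold higher level in MNF_ciEPC (edgeR's quasi-likelihood test, adjusted p = 0.0375). Grb10, an imprinted adaptor that restrains insulin and growth factor receptors, was at 93.1, 137 and 281 CPM against 684 and 734 CPM. All 9 libraries lay below both MNF_ciEPC libraries, nearest in series 1 passage 2 at 281 CPM and farthest in series 2 passage 5 at 93.1 CPM, and Grb10 was 4.78-fold higher in MNF_ciEPC (log2 2.26 ± 0.62, adjusted p = 0.0423). Both calls rested on few samples: without series 2 the log2 difference was 2.21 for H19 and 1.96 for Grb10, neither called. H19 was also not called with the 9 libraries as separate samples (adjusted p = 0.168). Neither was called with 1 MNF_ciEPC library (H19 at 3.19 without passage 2 and 3.07 without passage 3, Grb10 at 2.32 and 2.24), nor Grb10 without series 1 (2.66).

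Nefl, Fjx1, Cgnl1 and Basp1 were higher in MNF_ciEPC. Nefl, the light subunit of neurofilaments, was at 0, 1.39 and 8.35 CPM in MEF_ciEPC and at 61.4 and 81.8 CPM in MNF_ciEPC. The lowest MNF_ciEPC library was thus far above the highest MEF_ciEPC library, and the difference was 26.4-fold (log2 4.72 ± 0.60, adjusted p = 0.00087). Fjx1, which encodes a secreted relative of the Drosophila planar polarity kinase four-jointed, was at 8.99, 14.4 and 31.7 CPM against 81.7 and 83.6 CPM (4.76-fold, adjusted p = 0.000555). Cgnl1, a cingulin relative at tight junctions, was at 37.5, 87.5 and 122 CPM against 270 and 248 CPM (2.81-fold), and Basp1, a membrane protein of growing axons, was 2.53-fold higher. These 4 genes kept their call in all 20 settings tried, as did 9 others of the 165. Fjx1, Cgnl1 and Basp1 were picked after that was seen.

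Arnt2, a partner of bHLH-PAS transcription factors, was at 0.719, 4.84 and 9.31 CPM in MEF_ciEPC and at 33.3 and 37.6 CPM in MNF_ciEPC (6.86-fold, adjusted p = 0.00294). Ampd3, an AMP deaminase, was 5.65-fold higher and Rbpms2, an RNA-binding protein of smooth muscle and gut, 4.82-fold higher, and the libraries of the groups did not overlap for either. Emb, the basigin relative embigin that escorts monocarboxylate transporters, was at 61.6, 227 and 396 CPM against 641 and 748 CPM (2.63-fold, adjusted p = 0.00424). Hexokinase 1 (Hk1) was at 61.1, 71.6 and 102 CPM against 175 and 191 CPM (2.28-fold, adjusted p = 0.00781). Of 32 genes of epithelial junctions and keratins, only Marveld2, the tricellular junction protein tricellulin, was higher in MNF_ciEPC, at 19.6, 22.8 and 31.6 CPM against 59.2 and 53.8 CPM (2.3-fold, adjusted p = 0.0135). When 1 MNF_ciEPC library was dropped, Marveld2 (1.14 and 1.30) lost its call, as did Hk1 (1.16) and Emb (1.31) without passage 3. Without series 1, Hk1 (1.11) and Marveld2 (1.18) were not called, and without series 2 Marveld2 (1.25) was not.

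Afp and Zfp42 were higher in MNF_ciEPC at low levels. Afp, the fetal serum protein alpha-fetoprotein made by yolk sac and fetal liver, was at 0.34, 1.49 and 4.38 CPM in MEF_ciEPC and at 20.7 and 15.5 CPM in MNF_ciEPC. All MEF_ciEPC libraries were below both MNF_ciEPC libraries, and the difference was 9.55-fold (log2 3.26 ± 0.74, adjusted p = 0.024). Zfp42, a zinc-finger gene used as a marker of stem cells, was at 0, 0.548 and 1.49 CPM against 5.03 and 5.04 CPM (9.56-fold, adjusted p = 0.0477). Of 24 tested hepatoblast and hepatocyte genes 2, Afp among them, were called in this direction, and 0 were called in the other. Over all genes these shares were 1.03% and 3.18%. The median over that list was nevertheless -1.34, or 0.00 with the 11 members that lack counts in a group set to their bound. Against a single MNF_ciEPC library neither gene was called (Afp at 3.05 and 3.49, Zfp42 at 3.27 and 3.29), nor was either without series 2 (2.84 and 3.35). Without series 1, Afp (4.39) and Zfp42 (3.10) were not called.

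Copies of other genes gave steep differences towards MNF_ciEPC. Gm5611, a processed pseudogene (chr9:17030045-17030896, plus strand), was at 0, 0 and 0.557 CPM in MEF_ciEPC and at 47 and 48.1 CPM in MNF_ciEPC (248-fold, adjusted p = 0.000979). Tpm3-rs7, a tropomyosin 3 retrogene (chr14:113314608-113316754, plus strand), was at 0, 0 and 2.23 CPM against 165 and 170 CPM (224-fold, adjusted p = 0.00118). DESeq2 did not call Tpm3-rs7 (adjusted p = 0.448). Reads of such copies can be shared with their parent genes, so their counts are uncertain. In the fibroblasts, whose libraries of both origins have the longer read length of 74.5 bases, the means were 0.538 ± 0.496 CPM (SD, n = 3) in MEF and 0.103 ± 0.146 CPM (SD, n = 2) in MNF for Gm5611. For Tpm3-rs7 they were 0.652 ± 1.13 CPM in MEF and 0 CPM in MNF.

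Among the genes higher in MEF_ciEPC, Sox11, a SOXC transcription factor of neural and mesenchymal progenitors, had the smallest adjusted p of the genes named here. Sox11 was at 16.3, 103 and 210 CPM in MEF_ciEPC and at 0.314 and 0.72 CPM in MNF_ciEPC. Even the lowest MEF_ciEPC library, series 1 passage 2, was well above both MNF_ciEPC libraries, and the difference was 174-fold (log2 -7.45 ± 0.58, edgeR's quasi-likelihood test, adjusted p = 1.31e-05). In the starting fibroblasts Sox11 was at 52.5 ± 15.4 CPM (SD, n = 3) in MEF and 29.7 ± 3.19 CPM (SD, n = 2) in MNF, a log2 difference of -0.82 that was not called (adjusted p = 0.0901). Stum, a membrane protein related to a fly mechanosensory gene, was at 1.36, 24.3 and 120 CPM and had no count in MNF_ciEPC, a level at least 156-fold higher in MEF_ciEPC when 3 counts are allowed for both MNF_ciEPC libraries together (adjusted p = 0.00194). By DESeq2 Stum was not called (adjusted p = 0.0897). Irf4, an interferon regulatory factor best known from lymphocytes, was at 10.1, 19.8 and 45.3 CPM against 0.157 and 0.18 CPM. With 2 counts in MNF_ciEPC its ratio was 138, with a counting interval from 38.1 to 1150.

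Krt7, Sprr2a2 and Rarres1 were also higher in MEF_ciEPC. Krt7, a keratin of simple and ductal epithelia, was at 21.4, 125 and 1170 CPM against 19.2 and 5.94 CPM (31.7-fold, adjusted p = 0.000223). The 3 highest MEF_ciEPC libraries for Krt7 were both passage 10 libraries and series 2 passage 5, while series 1 passages 3 and 4 lay just above MNF_ciEPC. Sprr2a2, a cornified envelope protein of stressed epithelia, was at 530, 663 and 5960 CPM against 106 and 111 CPM (17.7-fold, adjusted p = 0.000261). Its near-identical neighbours Sprr2a1 and Sprr2a3 were 22-fold and 27-fold higher in MEF_ciEPC, and the 3 share reads, so they were not counted as separate findings. Sprr2a1 was not called by DESeq2 (adjusted p = 0.416). Rarres1, a retinoid-inducible membrane protein, was at 17.5, 49.6 and 97.5 CPM against 0.785 and 2.52 CPM (35.6-fold, adjusted p = 0.000103). Pfkfb3, the bifunctional enzyme that raises glycolytic flux, was at 21.7, 63.6 and 203 CPM against 15.9 and 10.3 CPM (7.19-fold). Kirrel, a nephrin relative of cell contacts, was at 23.5, 49 and 92 CPM against 17.1 and 12.2 CPM (3.55-fold). Sox11, Rarres1, Sprr2a2, Sprr2a3, Irf4, Pfkfb3 and Kirrel were among 24 genes called higher in MEF_ciEPC in all 20 settings, and Irf4, Pfkfb3 and Kirrel were picked after that was seen. Dagla, which makes the endocannabinoid 2-arachidonoylglycerol, was at 1.95, 11 and 107 CPM against 1.41 and 0.18 CPM (47.8-fold, adjusted p = 0.000591). Krt7 and Dagla were not called with the 9 libraries as separate samples (adjusted p = 0.0526 and 0.0512) or in limma voom with the series as a random effect (0.104 and 0.149).

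Of 36 tested Hox genes 5 were higher in MEF_ciEPC and 0 in MNF_ciEPC by edgeR's quasi-likelihood test and by DESeq2 alike, where 3.18% and 1.03% of all genes were by edgeR, and 8 had an unadjusted p under 0.05. The list had a median log2 difference of -0.50, or -0.22 with members that lack counts at their bound, against -0.07 over all genes (-0.03 with bounds). Hoxa9 was at 4.89, 11.9 and 60.1 CPM in MEF_ciEPC and at 0.157 and 0.54 CPM in MNF_ciEPC (73.2-fold, adjusted p = 0.00656). Hoxa10 was at 4.28, 21.8 and 43.8 CPM against 0.785 and 0.72 CPM (34.8-fold, adjusted p = 0.0123). Hoxa11, with 2 counts in MNF_ciEPC, had a ratio of 52.1 (counting interval 14.2 to 433). The libraries of the 2 origins did not overlap for these 3 genes. In the fibroblasts Hoxa9 was at 15.8 ± 4.7 CPM (SD, n = 3) in MEF and 21.2 ± 18.5 CPM (SD, n = 2) in MNF, and Hoxa10 at 26.4 ± 1.86 and 21.2 ± 22.3 CPM. Hoxa11 was at 14.4 ± 1.99 CPM in MEF and 4.45 ± 4.23 CPM in MNF, in the direction of the ciEPCs (log2 -1.69, interval -2.99 to -0.39, adjusted p = 0.0549, not called). The other members were Hoxb3, 5.89-fold higher in MEF_ciEPC and picked after its value was seen, and Hoxc4, at least 10.4-fold higher. With 1 MNF_ciEPC library left out the calls of Hoxa9 (-5.56 and -7.17), Hoxa10 (-5.18 and -5.04), Hoxb3 (-3.20 and -2.11) and Hoxc4 (adjusted p = 0.104 and 0.119) were lost, and Hoxa11 without passage 2 (-4.66). Without series 1, Hoxb3 (-2.20) and Hoxc4 (adjusted p = 0.0758) lost theirs, and without series 2 Hoxa10 (-4.56). Hoxb3 was also not called with the 9 libraries as separate samples (adjusted p = 0.057).

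Of 32 limb and skin positional regulators 4 were higher in MEF_ciEPC and 0 in MNF_ciEPC by edgeR's quasi-likelihood test, where 3.18% and 1.03% of all genes were. DESeq2 called 6 and 1. The median was -0.98 (-0.34 with bounds), and 11 had an unadjusted p under 0.05. Meis1, a TALE cofactor of Hox proteins, was at 10.3, 18.4 and 46 CPM against 6.75 and 5.76 CPM (4.03-fold, adjusted p = 0.00379). En1, an engrailed homeobox gene of ventral limb ectoderm and dermis, was at 0.835, 2.48 and 23.8 CPM against 0.628 and 0.9 CPM (7.68-fold, adjusted p = 0.00241), and its groups overlapped. Tbx15, a T-box factor of dermis and limb, was 2.5-fold and Meis2 3.13-fold higher in MEF_ciEPC. The fibroblasts ran the other way for En1 and Tbx15, which were at 61.9 ± 4.46 and 203 ± 2.94 CPM (SD, n = 2) in MNF against 25.7 ± 4.03 and 101 ± 11.3 CPM (SD, n = 3) in MEF. When 1 MNF_ciEPC library was dropped, the calls of Tbx15 (-1.15 and -1.46) and Meis2 (-1.39 and -1.89) were lost, as were En1 (-2.69) without passage 2 and Meis1 (-1.88) without passage 3. Tbx15 (-1.23) was also lost without series 2 and Meis2 (-1.52) without series 1. With the 9 libraries as separate samples En1, Tbx15 and Meis2 were not called (adjusted p = 0.107, 0.0903 and 0.0612), nor in limma voom with the series as a random effect (0.136, 0.134 and 0.0779).

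Genes of neurons and neural crest also split by origin, in the opposite sense to Nefl. Of 12 tested neural and neural crest genes 5 were higher in MEF_ciEPC and 0 in MNF_ciEPC by edgeR and DESeq2 alike, where 3.18% of all genes were higher in MEF_ciEPC by edgeR. The median was -1.25 (-0.90 with bounds), and 5 had an unadjusted p under 0.05. Pax6, a paired-box regulator of eye, brain and pancreas, was at 1.36, 9.9 and 33.4 CPM against 0.157 and 0.72 CPM (41.6-fold, adjusted p = 0.00463). Stmn2, a tubulin-binding protein of growing axons, was at 0, 17.9 and 49 CPM against 0.314 and 0.18 CPM, a ratio of 80.7 (counting interval 27.5 to 393), and series 1 passages 2, 3 and 6 were at less than 1 CPM. Tubb3, neuronal beta-tubulin, was 4.67-fold higher in MEF_ciEPC (adjusted p = 0.00648). Ncam1 (ratio 22.8, counting interval 3.9 to 921) and Mitf (3.01-fold), a melanocyte regulator picked after its value was seen, overlapped between groups, and without the series 1 passage 2 library they were at -3.62 and -1.29 and not called. Against a single MNF_ciEPC library, Ncam1 (no count left without passage 2, -3.30 without passage 3) and Mitf (-2.37 and -1.07) were not called. Nor was Pax6 (-4.65) without passage 2 or Tubb3 (-1.83) without passage 3. Neither Ncam1 nor Mitf was called without series 1 (-3.34 and -1.61) or without series 2 (-4.34 and -1.55). In limma voom with the series as a random effect 4 of the 5 were not called, Stmn2, Tubb3, Ncam1 and Mitf (adjusted p = 0.195, 0.109, 0.112 and 0.208). The same 4 were not called with the 9 libraries as separate samples (0.0516, 0.0696, 0.104 and 0.161).

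Stress response genes differed in 1 direction as well. When amino acids run short or unfolded protein collects in the endoplasmic reticulum, phosphorylation of eIF2 alpha favours translation of the transcription factor ATF4, which with C/EBP partners binds elements built on the core TGATGCAA. Of 26 tested genes of the unfolded protein and amino acid stress responses 6 were higher in MEF_ciEPC and 0 in MNF_ciEPC by edgeR's quasi-likelihood test, where 3.18% and 1.03% of all genes were. DESeq2 called 7 and 0, 16 had an unadjusted p under 0.05, and the median was -0.90. In limma voom with the series as a random effect none of the 6 was called. The promoters of 3 of the 6 held this core, and they are shown because they carry the element that the pathway is known for. Each is the 250 bases before the gene's start, 5' to 3' on the gene's strand, from RefSeq on GRCm38.p6, with matches on either strand in capitals.
Chac1, chr2:119350992-119351241, plus strand: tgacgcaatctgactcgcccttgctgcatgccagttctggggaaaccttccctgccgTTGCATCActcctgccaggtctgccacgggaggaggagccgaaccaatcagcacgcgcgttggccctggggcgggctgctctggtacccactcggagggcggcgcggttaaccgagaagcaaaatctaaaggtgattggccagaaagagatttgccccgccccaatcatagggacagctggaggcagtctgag
Slc7a11, chr3:50443614-50443863, minus strand: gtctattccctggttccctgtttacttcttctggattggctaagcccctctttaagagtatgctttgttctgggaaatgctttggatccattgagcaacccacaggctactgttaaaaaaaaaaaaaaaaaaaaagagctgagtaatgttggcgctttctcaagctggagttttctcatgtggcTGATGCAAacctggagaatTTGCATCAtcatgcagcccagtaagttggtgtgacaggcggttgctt
Herpud1, chr8:94386179-94386428, plus strand: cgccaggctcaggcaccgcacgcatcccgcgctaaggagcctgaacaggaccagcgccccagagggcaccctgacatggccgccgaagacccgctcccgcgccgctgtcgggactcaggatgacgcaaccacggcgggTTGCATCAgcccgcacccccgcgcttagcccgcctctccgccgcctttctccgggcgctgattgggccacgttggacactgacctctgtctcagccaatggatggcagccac

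TTGCATCA is the same core read on the other strand. The first match lies 193 bases before the start in Chac1, 112 in Herpud1 and 66 in Slc7a11, which holds 2. Over all 32851 RefSeq windows of this length, 260 (0.791%) held TGATGCAA. Of the 6 genes higher in MEF_ciEPC 5 had a window and 3 held the core, and of the 19 list members not called that had a window 1 (Atf3) held it. With any base at the sixth place (TGATGNAA, which includes the core) the counts were 3 and 2, and 1134 windows (3.45%) held it. A match is a description of the letters only.

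Trib3, a pseudokinase induced by ATF4, was at 9.19, 22 and 136 CPM in MEF_ciEPC and at 3.3 and 5.22 CPM in MNF_ciEPC. All 9 libraries lay above both MNF_ciEPC libraries, and the difference was 9.04-fold (log2 -3.18 ± 0.51, adjusted p = 0.00241). Chac1, a glutathione-degrading enzyme, was at 8.68, 32.9 and 133 CPM against 2.36 and 5.76 CPM (10.1-fold, adjusted p = 0.00942). Slc7a5, a carrier of large neutral amino acids, was at 45.6, 86.5 and 265 CPM against 35.5 and 42.3 CPM (3.2-fold, adjusted p = 0.00512). Slc7a11, the cystine and glutamate exchanger, was at 2.78, 7.12 and 26.3 CPM against 0.785 and 1.26 CPM (8.81-fold, adjusted p = 0.0223).

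Herpud1, a factor of endoplasmic reticulum protein disposal, was 2.2-fold and Pdia4, a disulfide isomerase, 2.29-fold higher in MEF_ciEPC; both overlapped between groups and were picked after their values were seen. The highest MEF_ciEPC library was series 1 passage 10 for Trib3, Chac1 and Slc7a5 and series 1 passage 6 for Slc7a11. With 1 MNF_ciEPC library left out 5 of the 6 were not called: Chac1 at -2.79 and -4.05, Slc7a5 at -1.55 and -1.78, Slc7a11 at -2.81 and -3.45, Herpud1 at -0.96 and -1.28, and Pdia4 at -1.44 and -0.96. Trib3 (-2.86) lost its call without passage 2 only. Without series 1, Chac1 (-2.66), Slc7a11 (-1.76) and Herpud1 (-0.85) were not called, and without series 2 Herpud1 (-1.35) and Pdia4 (-0.77) were not. In limma voom with the series as a random effect the adjusted p was 0.126 for Trib3, 0.0876 for Chac1, 0.0626 for Slc7a5, 0.0845 for Slc7a11, 0.0998 for Herpud1 and 0.15 for Pdia4. With the 9 libraries as separate samples Trib3 (0.0527), Slc7a5 (0.0838), Herpud1 (0.119) and Pdia4 (0.161) were not called.

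Matrix genes of fibroblasts differed through 1 library in part. Of 32 tested fibroblast genes 6 were higher in MEF_ciEPC and 0 in MNF_ciEPC by edgeR's quasi-likelihood test, where 3.18% and 1.03% of all genes were. DESeq2 called 9 and 1. The median was -2.04 (-1.99 with bounds), and 19 had an unadjusted p under 0.05. Fn1, fibronectin, was at 164, 285 and 1300 CPM in MEF_ciEPC and at 158 and 143 CPM in MNF_ciEPC, 3.16-fold higher in MEF_ciEPC (adjusted p = 0.00765), and it was called without the series 1 passage 2 library too, as were 2.88% of all genes in that direction. Twist1, a mesenchymal bHLH factor, was 4.45-fold higher (adjusted p = 0.00313). Tnc, the matrix protein tenascin C, was at 205 CPM in series 1 passage 2, 11 CPM in passage 3 and at most 0.372 CPM in the other 7 libraries, against 0.471 and 0 CPM in MNF_ciEPC. The collagen VI genes Col6a1, Col6a2 and Col6a3 were at 412, 273 and 334 CPM in that same passage 2 library. Col6a1 and Col6a2 were also at 156 and 221 CPM in series 2 passage 10. In series 1 passages 3, 4 and 6 and series 2 passage 1 both were at 19 CPM or less. With MEF_ciEPC libraries from passage 10 on, Col6a1 (-2.07, adjusted p = 0.00942) and Col6a2 (-3.04, 0.00438) were called. Tnc (0.82) and Col6a3, without counts there, were not. Without the series 1 passage 2 library the log2 difference was -2.72 for Tnc, -1.10 for Col6a1 and -1.92 for Col6a2. The adjusted p was then 0.137 for Col6a3, which had no count in MNF_ciEPC. None was called. Without series 1 as a whole Tnc was at 0.73, the opposite sign, Col6a3 had no counts in either group and Col6a1 was at -1.58, and without series 2 Col6a1 (-1.90) and Col6a2 (-2.07) were not called. When 1 MNF_ciEPC library was dropped, Fn1 (-1.73 and -1.56) was not called, and Twist1 (-2.04) was not without passage 3. With 1 MNF_ciEPC library Col6a1 (-2.46 and -1.26), Col6a2 (-2.56 and -2.09) and Col6a3 were not called either. The same held for Tnc, with no count left without passage 2 and -5.27 without passage 3. None of the 6 was called with the 9 libraries as separate samples (adjusted p from 0.061 for Twist1 to 0.424 for Col6a1) or in limma voom with the series as a random effect (from 0.0898 for Fn1 to 0.959 for Col6a1). Col6a1 and Col6a3 were picked after their values were seen. The share of fibroblast RNA in these calls was not tested beyond leaving out that library.

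Of 35 interferon-stimulated genes 3 were higher in MEF_ciEPC and 0 in MNF_ciEPC by edgeR's quasi-likelihood test, where 3.18% and 1.03% of all genes were. DESeq2 called 5 and 0, and 8 had an unadjusted p under 0.05. Ifitm2, which restricts virus entry, was at 15.9, 20.1 and 72.3 CPM against 5.34 and 3.42 CPM (8.13-fold, adjusted p = 0.000862). Ifitm1 was 6.8-fold higher, and was not called without series 2 (-2.18) or MNF_ciEPC passage 3 (-2.18). Lgals3bp, a secreted galectin ligand, was at 167 CPM in series 1 passage 2 and at most 16.5 CPM in the other 8 MEF_ciEPC libraries. It was 6.7-fold higher with that library and at -1.19 on the log2 scale, not called, without it. Lgals3bp was not called without series 1 (-0.72) or with 1 MNF_ciEPC library (-4.27 and -2.01). Ifitm1 and Lgals3bp were not called with the 9 libraries as separate samples (adjusted p = 0.119 and 0.207) or in limma voom with the series as a random effect (0.231 and 0.31).

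The imprinted genes did not move together. Over all genes 1.03% were higher in MNF_ciEPC and 3.18% in MEF_ciEPC. Of 23 maternally expressed genes 2 (H19 and Grb10) were higher in MNF_ciEPC and 1 was higher in MEF_ciEPC, with a median of 0.22. That 1 was Cdkn1c, the growth-restraining CDK inhibitor p57, at 52, 126 and 368 CPM in MEF_ciEPC and at 26.2 and 22.3 CPM in MNF_ciEPC (6.29-fold, adjusted p = 0.0151). Of 30 paternally expressed genes 1 was called, Snrpn, an RNA-processing gene of the Prader-Willi region, at 1.67, 6.26 and 9.68 CPM against 0.314 and 1.26 CPM (7.19-fold higher in MEF_ciEPC, adjusted p = 0.00859). Dnmt3b, a de novo DNA methyltransferase, was the 1 of 15 DNA methylation genes called, at 16.3, 94.4 and 166 CPM against 38.6 and 39.4 CPM (2.47-fold higher in MEF_ciEPC, adjusted p = 0.0279), and the lowest library, series 1 passage 2, was below MNF_ciEPC. Against a single MNF_ciEPC library Cdkn1c (-2.77 and -2.51) and Dnmt3b (-1.28 and -1.29) were not called, nor was Snrpn (-2.13) without passage 2. Dnmt3b was also not called without series 1 (-1.44) or series 2 (-1.14), with the 9 libraries as separate samples (adjusted p = 0.183) or in limma voom with the series as a random effect (0.208).

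Y-linked genes were called by origin too. Eif2s3y, a translation initiation subunit, was at 0, 44.1 and 80.7 CPM in MEF_ciEPC and had no count in MNF_ciEPC (at least 175-fold, adjusted p = 0.00323). Ddx3y, an RNA helicase, was at 0.372, 19.7 and 47.5 CPM and again had no count in MNF_ciEPC (at least 86-fold, adjusted p = 0.0108). Kdm5d, a histone demethylase, was 24.8-fold higher in MEF_ciEPC (adjusted p = 0.0137), and Uty was not called (adjusted p = 0.0682). The lowest MEF_ciEPC library for all 4 was series 1 passage 22, with 0, 0.372, 0 and 0 CPM. Apart from that library, the level of Y-linked RNA moved with origin in the ciEPCs. The 2 cannot be told apart for the calls of other genes. The starting fibroblasts of both origins had Y-linked RNA, with Eif2s3y at 32.3 ± 8.33 CPM (SD, n = 3) in MEF and 42.8 ± 8.78 CPM (SD, n = 2) in MNF. Xist, the RNA that coats an inactive X chromosome, was at 402, 782 and 3290 CPM in MEF_ciEPC, highest in series 1 passage 22, and at 1990 and 2160 CPM in MNF_ciEPC. The groups overlapped, and Xist was not called (adjusted p = 0.712). With 1 MNF_ciEPC library left out, Ddx3y (adjusted p = 0.0984 and 0.118) and Kdm5d (-3.84 and -6.15) lost their calls, as did Eif2s3y without passage 3 (adjusted p = 0.0509) and Kdm5d without series 2 (-4.06). In limma voom with the series as a random effect Eif2s3y (adjusted p = 0.1) and Kdm5d (0.115) were not called. Fitted differences are no measure of size for genes with no count, so their p is given instead.

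**Figure D2:**
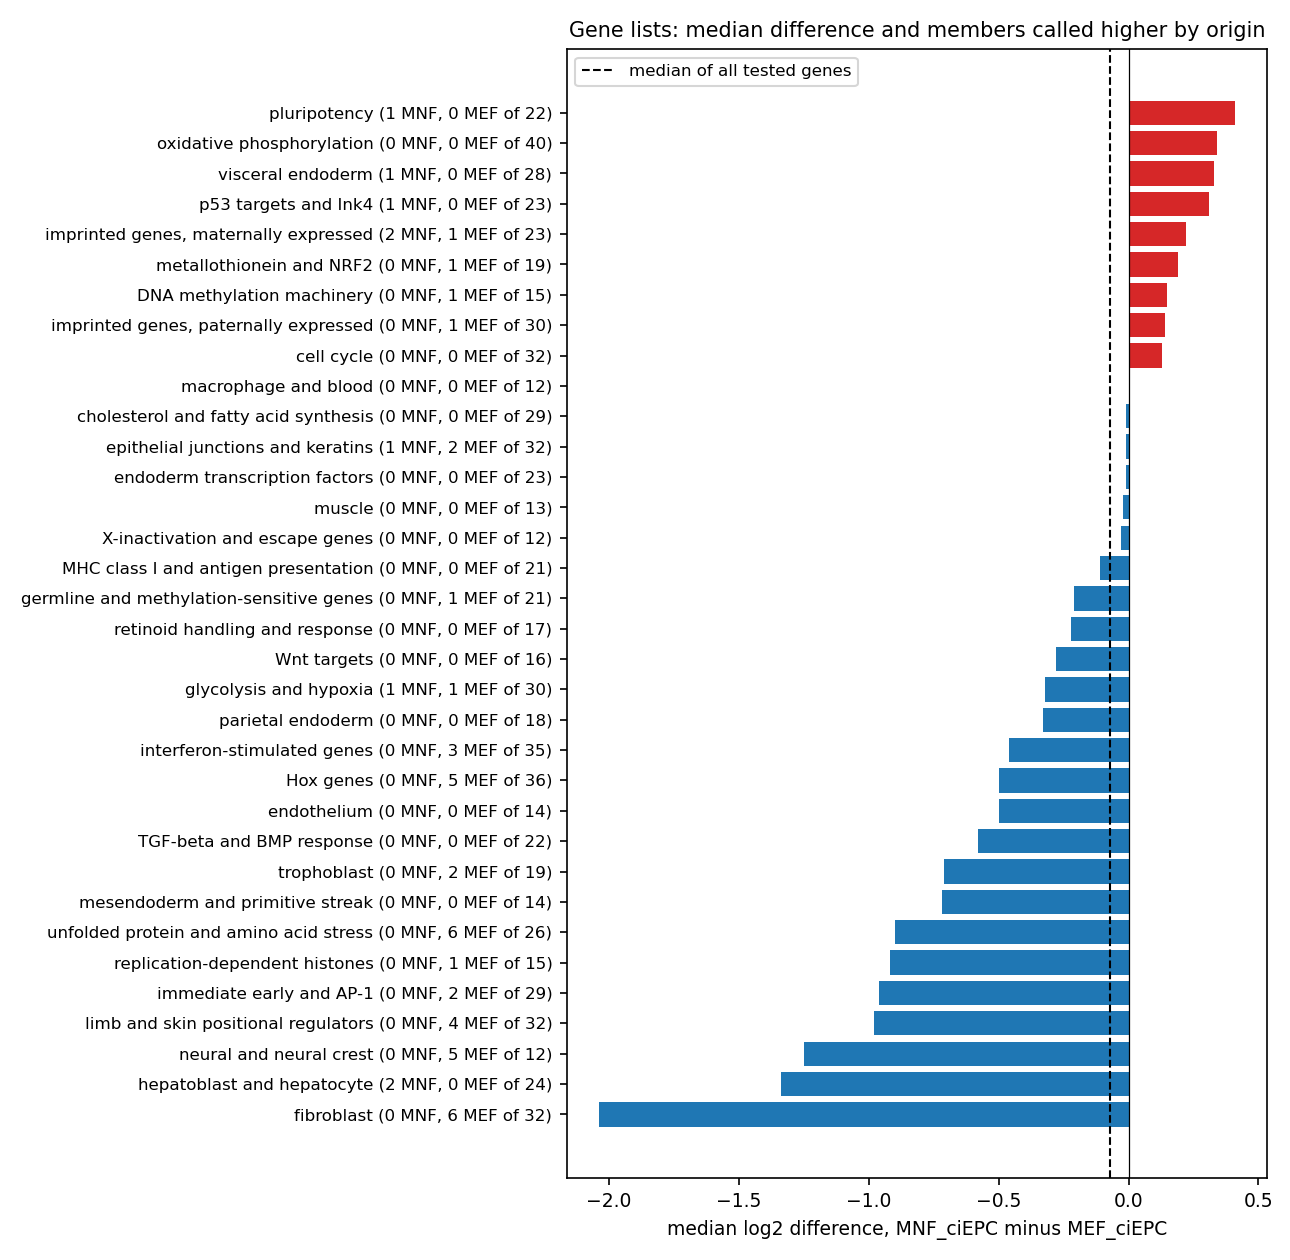
Bars give the median log2 difference (MNF_ciEPC minus MEF_ciEPC) over the tested members of each gene list with at least 10 tested members, and the labels count members called higher in either group. The dashed line is the median of all tested genes, -0.07. The longest bar to the left is that of fibroblast genes at -2.04, followed by hepatoblast and hepatocyte genes at -1.34 and neural genes at -1.25. The hepatoblast bar rests on fitted values of 11 members without counts in a group, and with those at their bound its median is 0.00.

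Most of the other lists held 0 to 2 called members. By edgeR's quasi-likelihood test and by DESeq2 alike, 0 members were called in either direction of 32 cell cycle genes, 29 cholesterol and fatty acid synthesis genes, 21 MHC class I and antigen presentation genes, 18 parietal endoderm genes, 14 mesendoderm genes, 16 Wnt targets, 17 retinoid genes, 13 muscle genes, 12 macrophage and blood genes, 12 X-inactivation genes and 4 ribosomal protein genes. At an unadjusted p under 0.05 these lists held 2, 3, 3, 1, 1, 2, 3, 2, 0, 1 and 0 genes. Of 40 genes of oxidative phosphorylation 0 were called by either tool, 19 had an unadjusted p under 0.05, and their median was 0.34. Of 22 TGF-beta and BMP response genes 0 were called by edgeR and 5 by DESeq2 (1 higher in MNF_ciEPC, 4 in MEF_ciEPC), 9 had an unadjusted p under 0.05 and their median was -0.58. Of 14 endothelial genes 0 were called by edgeR and 1 by DESeq2, and 3 had an unadjusted p under 0.05.

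Of 28 visceral endoderm genes 1 was higher in MNF_ciEPC, which was Afp, and of 22 pluripotency genes 1 was, which was Zfp42. Of 23 p53 targets the epithelial membrane protein gene Perp was higher in MNF_ciEPC, at 7.82, 11.6 and 21.2 CPM against 39.1 and 30.1 CPM (2.64-fold, adjusted p = 0.00798), and it was not called without series 2 (1.22) or MNF_ciEPC passage 2 (1.21). Of 30 glycolysis and hypoxia genes Hk1 was higher in MNF_ciEPC and Adm, the vasodilator peptide adrenomedullin, in MEF_ciEPC, and of 32 epithelial genes Krt7 and the vesicle GTPase Rab25 were higher in MEF_ciEPC. Higher in MEF_ciEPC alone were 2 of 29 immediate early genes (median -0.96), 2 of 19 trophoblast genes, and 1 each of 15 replication-dependent histones, 19 metallothionein and NRF2 genes and 21 germline genes. Over all genes 3.18% were higher in MEF_ciEPC and 1.03% in MNF_ciEPC. The macrophage genes Adgre1 and Ptprc were at 0 in all 11 libraries.

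Few of the genes called between the progenitors were called alike between the starting fibroblasts. The fibroblast libraries enter no ciEPC level, but they share the estimate of spread behind the ciEPC calls. Of the 165 genes higher in MNF_ciEPC, 27 (16.4%) were also higher in MNF fibroblasts, where 9.04% of all tested genes were, and 19 (11.5%) were higher in MEF, where 8.23% were. Of the 510 genes higher in MEF_ciEPC, 43 (8.43%) were also higher in MEF fibroblasts and 90 (17.6%) were higher in MNF. Without the series 1 passage 2 library these shares were 8.91% (41 of 460) and 14.3% (66). Read from the other side, the 27 genes are 1.86% of the 1451 genes higher in MNF fibroblasts, and the 43 are 3.25% of the 1322 higher in MEF.

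**Figure D3:**
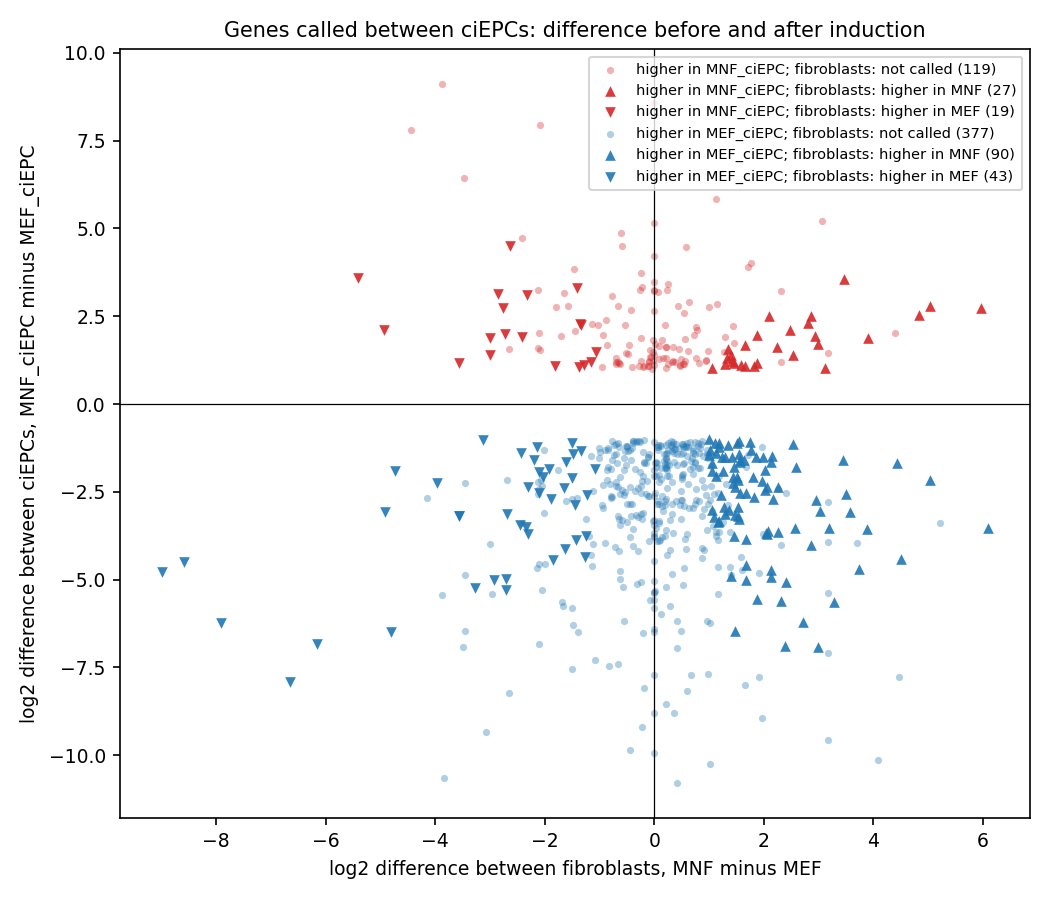
Each point is 1 of the 675 genes called between ciEPCs, with its log2 difference between MNF and MEF fibroblasts on the horizontal axis and between MNF_ciEPC and MEF_ciEPC on the vertical axis. Triangles are genes also called between the fibroblasts, with 27 and 43 in the quadrants of equal direction and 19 and 90 in those of opposite direction. Round points were not called between the fibroblasts.

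Seen from the fibroblasts, most genes that differed there were not called between the ciEPCs. The same held for all tested genes, of which only 4.20% were called between the ciEPCs, so nothing is read from the shares not called. The 1451 genes higher in MNF fibroblasts had a median log2 difference of 1.81 there and of -0.27 between the ciEPCs, where 91.9% were not called. The 1322 genes higher in MEF fibroblasts had medians of -1.83 and -0.02, and 95.3% were not called between the ciEPCs. Among the ciHeps, where both origins have a read length of 50.5 bases, 32 of the 165 genes (19.4%) were higher in MNF_ciHep, against 18.3% of all tested genes, and 42 (25.5%) were higher in MEF_ciHep, against 16.4%. Of the 510 genes 113 (22.2%) were higher in MEF_ciHep and 170 (33.3%) in MNF_ciHep.

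Only 5 genes were higher in the MNF-derived cells at all 3 stages (fibroblast, ciEPC and ciHep) and 8 in the MEF-derived cells. They are 5 of the 27 and 8 of the 43 genes called alike in fibroblasts and ciEPCs. Among all tested genes 18.3% were higher in MNF_ciHep and 16.4% in MEF_ciHep. The counts are near those shares, so nothing is read from them. Emb was among the 5, with 161 ± 18.4 CPM (SD, n = 2) in MNF against 27.7 ± 5.11 CPM (SD, n = 3) in MEF. C1s1, a protease of the classical complement pathway, was at 0.695, 1.86 and 5.11 CPM in MEF_ciEPC and at 14.9 and 9 CPM in MNF_ciEPC (5.82-fold, adjusted p = 0.00588), with 191 ± 82.1 CPM in MNF fibroblasts against 6.64 ± 2.05 CPM in MEF. Mgst1, a membrane glutathione transferase, was 3.83-fold and Cpt1c, a neuronal relative of carnitine palmitoyltransferase, 2.33-fold higher in MNF_ciEPC. Of the 8, Glipr1 (13.4-fold, adjusted p = 0.00116), Parm1 (6.03-fold) and Syt7 (5.1-fold) stood beside Krt7. Cd24a, a glycosylated surface protein of progenitors, was at 361, 745 and 902 CPM against 386 and 314 CPM (2.04-fold, adjusted p = 0.0222), and series 1 passages 2 and 3 overlapped MNF_ciEPC. When 1 MNF_ciEPC library was dropped, Mgst1 (1.44 and 2.35), Cpt1c (1.13 and 1.35) and Cd24a (-1.18 and -0.85) lost their calls, and C1s1 (2.14) did so without passage 2. Emb (1.31), Parm1 (-1.89) and Syt7 (-2.12) did so without passage 3. Mgst1 (1.68), Cd24a (-0.80) and Cpt1c, then at about 2-fold, were not called without series 2, nor Mgst1 (2.34) without series 1. Parm1 and Cd24a were not called with the 9 libraries as separate samples (adjusted p = 0.0881 and 0.0729) or in limma voom with the series as a random effect, where Parm1 had an adjusted p of 0.205 and Cd24a a log2 difference of -0.89, under 2-fold.

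The genes called differed between sets of passages. MNF_ciEPC were sampled at passages 2 and 3 only, so the MEF_ciEPC libraries up to passage 5 (series 1 passages 2, 3 and 4, series 2 passages 1 and 5) and those from passage 10 on were also set against them in turn. These fits share the MNF_ciEPC libraries, so their values are given side by side. They differ in how many MEF_ciEPC libraries they hold, and only the earlier set holds series 1 passage 2. Passage itself was thus not tested. Up to passage 5, 75 genes were higher in MNF_ciEPC (0.467%) and 233 in MEF_ciEPC (1.45%), and from passage 10 on 759 (4.75%) and 985 (6.17%). Of the 165 and 510 genes called over all passages, 70 and 225 were called up to passage 5 and 156 and 454 from passage 10 on.

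**Figure D4:**
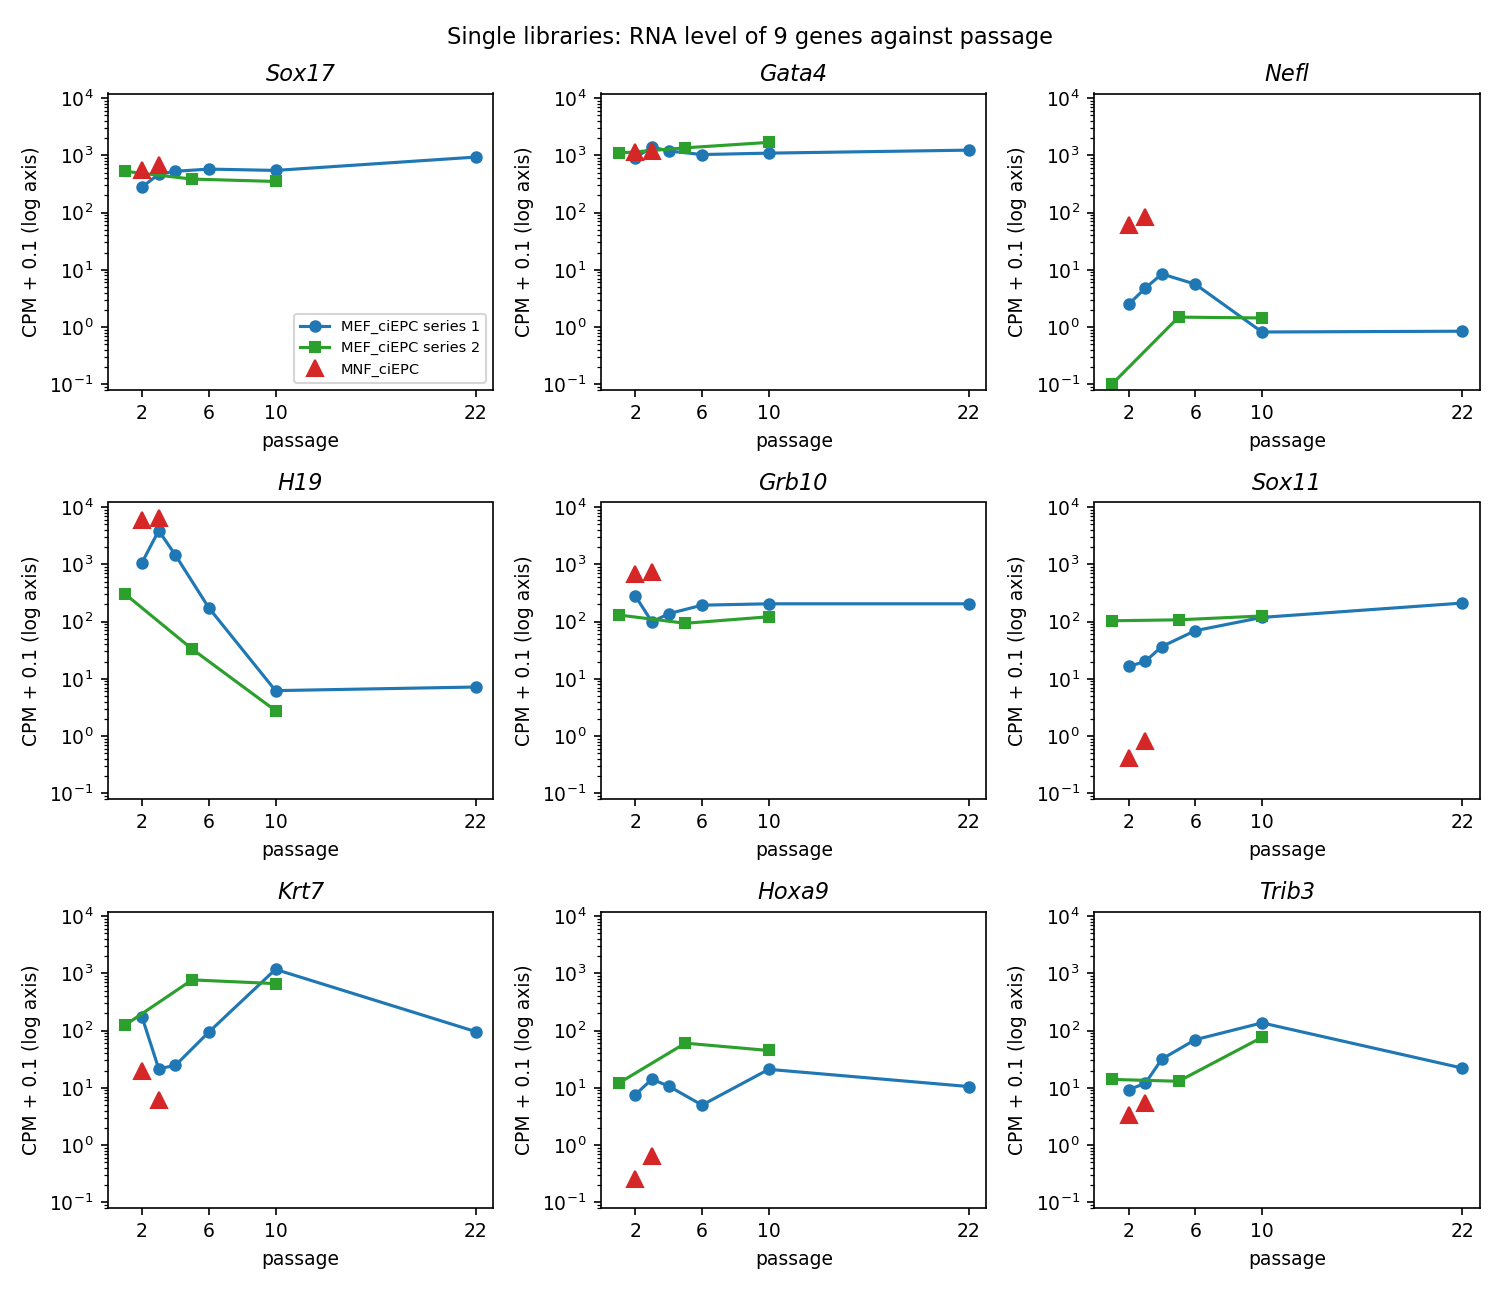
Each panel plots the CPM plus 0.1 of 1 gene on a log axis against passage, for the 6 libraries of MEF_ciEPC series 1 (blue circles), the 3 of series 2 (green squares) and the 2 MNF_ciEPC libraries (red triangles). Sox17 and Gata4 overlap between origins, Nefl and Grb10 are apart at every passage, and H19 in MEF_ciEPC runs from 3870 CPM at series 1 passage 3 down to 2.68 CPM at series 2 passage 10.

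The difference in H19 was log2 2.37 up to passage 5, not called, and 10.25 from passage 10 on, where it was called. Nefl was called in both, at 4.39 and 6.22, and so were Fjx1 (2.10 and 2.61), Arnt2 (2.38 and 4.07) and Emb (1.27 and 1.67). On the MEF side, Sox11 was at -6.90 and -8.07, Rarres1 at -5.33 and -4.81, Krt7 at -4.46 and -5.68, Hoxa9 at -6.10 and -6.32, and Ifitm2 at -3.09 and -2.93, all called at both ends. Of the stress genes only Slc7a11 (-2.93 and -3.19) was called up to passage 5. Trib3 was at -1.91 and -4.20, Chac1 at -2.45 and -4.01 and Slc7a5 at -0.98 and -2.35, each called from passage 10 on only. En1 (-1.56 and -4.10), Cdkn1c (-2.23 and -3.23), Snrpn (-2.45 and -3.30) and Dnmt3b (-0.95 and -1.84) were likewise called from passage 10 on only. Grb10 was at 2.36 and 2.12, and only the later value was called.

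Some of the differences ran along whole chromosomes. Over genes with a mean of at least 10 CPM, the median log2 difference was 0.33 on chromosome 10 (461 genes), 0.26 on chromosome 13 (338 genes) and 0.19 on chromosome 5 (636 genes). It was -0.29 on chromosome 1 (547 genes), -0.26 on chromosome 14 (341 genes) and -0.19 on chromosome 15 (382 genes), and between -0.06 and 0.05 on the other autosomes and chromosome X. Between MNF and MEF fibroblasts the same 6 chromosomes had medians from -0.10 to 0.00. On chromosome 1, 81.2% of these genes had a negative difference, against 44.8% to 56.7% on the chromosomes outside these 6. Of its 992 tested genes 56 (5.65%) were called higher in MEF_ciEPC, against 3.18% of all genes. Chromosome 14 was close, with 75.1% negative and 31 of 579 tested genes (5.35%) called higher in MEF_ciEPC. All 4 equal stretches of each of the 6 chromosomes, cut by gene order, had a median of the same sign as the whole.

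In single libraries, the chromosome 1 genes had a median log2 level, against the mean of the fibroblasts, of 0.49 in series 1 passage 10, 0.47 in series 1 passage 22 and 0.37 in series 2 passages 5 and 10. The remaining 5 libraries of MEF_ciEPC reached at most 0.10, and MNF_ciEPC stood at -0.08 and -0.05. Chromosome 10 genes were at 0.23 and 0.24 in MNF_ciEPC and between -0.11 and -0.02 in MEF_ciEPC. Chromosome 13 genes were at 0.28 and 0.18 against -0.09 to 0.06, and chromosome 5 genes at 0.18 and 0.23 against -0.01 to 0.09. Chromosome 14 genes were at -0.05 and -0.08 in MNF_ciEPC against -0.01 to 0.26 in MEF_ciEPC, and chromosome 15 genes overlapped, at -0.02 in both against -0.05 to 0.39. Measured against progenitors made from stem cells, the MNF_ciEPC values stayed apart on chromosomes 1, 5, 10 and 13 and overlapped on chromosomes 14 and 15. DNA copy number was not measured, and its part in these medians was not tested.

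**Figure D5:**
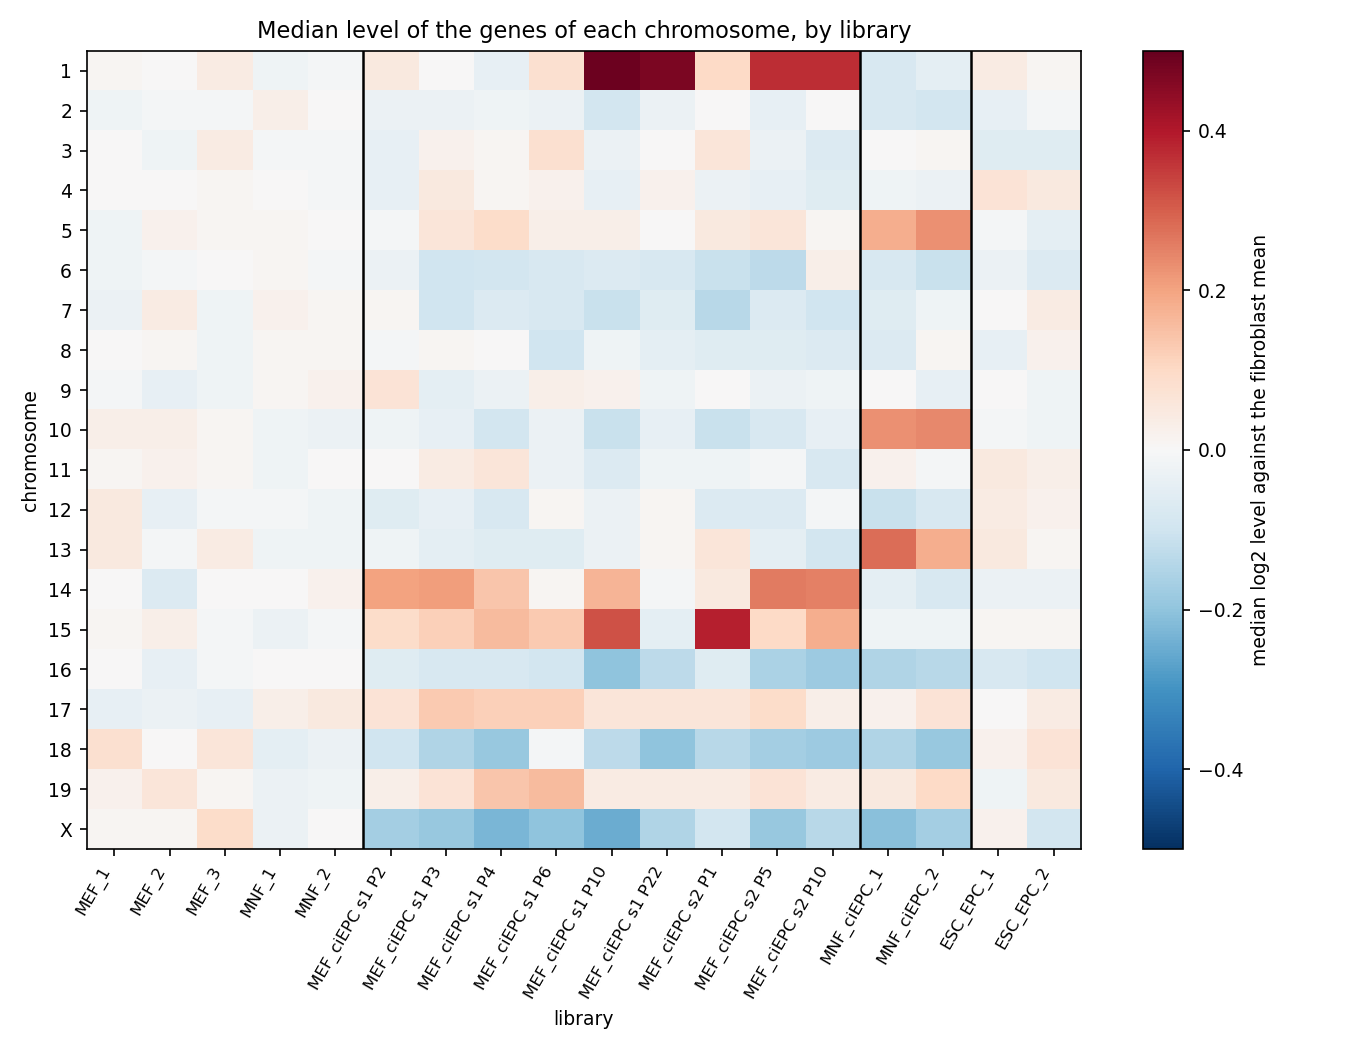
Colours give, for each chromosome (rows) and library (columns), the median log2 level of its genes with at least 10 mean CPM against the mean of the MEF and MNF fibroblasts, from -0.5 (blue) to 0.5 (red). Black lines separate fibroblasts, MEF_ciEPC, MNF_ciEPC and stem cell derived progenitors. Chromosome 1 is red in the MEF_ciEPC libraries of series 1 passages 10 and 22 and series 2 passages 5 and 10, and chromosomes 5, 10 and 13 are pale red in both MNF_ciEPC libraries.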

How the data were processed

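Total RNA was sequenced in 28 mouse libraries made with an Illumina TruSeq kit, per the labels' protocols. The authors deposited expected counts, which are unnormalized estimates of reads for each gene, and per the submitters' processing notes RSEM 1.2.4 was used on mm10. The aligner is not given in the sources used here. The TPM values that the authors deposited served only for an alternative, and the deposited FPKM was not read. Per the file headers each library also has gene lengths, from which the read length was implied.

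After rounding, the expected counts went into the quasi-likelihood fit of edgeR 4.0.16 (R 4.3.3), with TMM scaling and filterByExpr at a minimum count of 10. The 9 MEF_ciEPC libraries were summed to 2 series, and 1 fit held 20 samples of 9 groups, with a common coefficient of variation of 0.229. The library labelled series 2 passage 22 was left out of the sums and tried as an alternative. Positions are from GENCODE M21, in which 31426 of 31673 genes were found. Where a whole group had no count, 3 counts were allowed it, and with 1 to 3 counts the ratio has an exact 95% interval (Clopper-Pearson). Both cover counting error only.

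Genes were named by rule: the 12 largest rises and falls of called genes whose higher group averaged 32 CPM or more without overlap of single libraries, the 6 largest in each direction among those called alike at 3 stages, up to 4 called members per list, the 5 most abundant called genes in each direction, lineage genes and sex-linked genes. Some genes that the rule gives are not reported here. Any gene outside it is said to be picked after its values were seen. The members, the 36 gene lists and the tests were chosen with earlier results of these data known. Alternatives used DESeq2 1.42.0 and limma 3.58.1.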

Additional observations from a re-analysis of the deposited data

Results flagged for a closer look

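Of 154 groups of 9 MEF_ciEPC values (genes, chromosome medians and list means), 16 had a highest or lowest library far from the rest, and chance alone gives about 1 in 20. Series 1 passage 2 was high for Col1a1 (132 CPM, next 5.48) and Lgals3bp (167 CPM, next 16.5) and low for Pax6 (1.36 CPM, next 8.56). In that library the mean log2 CPM was 5.18 for fibroblast genes, 2.87 for interferon-stimulated genes and 3.41 for retinoid genes, each above the 8 other libraries (next highest 2.86 for fibroblast and 2.57 for retinoid genes). Series 1 passage 22 was low for Cdh1 (66.3 CPM, next 193), Ddx3y (0.372 CPM), Eif2s3y (0 CPM), Kdm5d (0 CPM) and Uty (0 CPM), and for the mean log2 CPM of the Y-linked genes (-0.64, next 2.79). Series 1 passage 3 was high for visceral endoderm genes (mean log2 CPM 4.75, next 4.04), and series 2 passage 5 was high for Sprr2a3 (236 CPM). Series 2 passage 1 was low for glycolysis and hypoxia genes (mean log2 CPM 6.54, next 7.09), and the chromosome 2 median was lowest in series 1 passage 10 (-0.09, next -0.04).

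The difference by origin changed between fibroblasts and ciEPCs for 58 of the 98 genes tested for it, tested as an interaction in edgeR's quasi-likelihood fit, and for 2554 of all 16055 genes (15.9%). Most of the 98 were named because they were called between the ciEPCs, so their count is largely set by that choice and nothing is read from it. Values after these genes are log2 differences of differences, ciEPC minus fibroblast. The shift was towards MNF origin for H19 (3.87), Grb10 (2.79), Nefl (7.13), Arnt2 (2.35), Rbpms2 (3.62), Gm5611 (10.04), Gm38312 (5.44), Gm53 (3.52), Perp (4.39), Fjx1 (3.59), Basp1 (1.40) and Cgnl1 (2.55). It was also positive for Gata4 (3.86) and Cd24a (2.09), whose ciEPC differences were smaller than those of the fibroblasts. For Tpm3-rs7, which had no counts in a group, the adjusted p was 0.0162.

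The shift was towards MEF origin for the positional genes Hoxa9 (-6.61), Hoxa10 (-4.81), Hoxa11 (-3.96), Hoxb3 (-2.41), En1 (-4.21), Meis1 (-2.51), Tbx15 (-2.33), Meis2 (-1.69) and Twist1 (-3.69) and, with no counts in a group, for Hoxc4 (adjusted p = 0.00466). It was so for the stress genes Trib3 (-4.69), Chac1 (-3.41), Slc7a5 (-1.73), Slc7a11 (-2.90) and Herpud1 (-1.53). The matrix genes followed, with Tnc (-5.61), Fn1 (-1.48), Col6a1 (-2.79) and Col6a2 (-3.37), and Col6a3 at an adjusted p of 0.0128. Among imprinted and interferon genes the values were Cdkn1c (-4.47), Snrpn (-2.93), Ifitm1 (-2.83), Ifitm2 (-4.08) and Lgals3bp (-5.70).

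The remaining shifts towards MEF origin were Sox11 (-6.62), Dagla (-5.50), Rarres1 (-5.69), Sprr2a2 (-4.44), Gm42427 (-3.95), Gm42429 (-5.23), Gm14226 (-5.41), Tubb3 (-2.54), Mitf (-3.22), Glipr1 (-2.51), Pfkfb3 (-2.45), Kirrel (-1.95), Nfasc (-9.29) and Kdm5d (-5.80). The Y-linked genes Ddx3y (adjusted p = 0.0121) and Eif2s3y (adjusted p = 0.0019) had no counts in a group. For Emb (-1.15) and C1s1 (-2.30) the shift was negative while both differences were towards MNF, the larger one in the fibroblasts.

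The library labelled series 2 passage 22 enters no comparison of the report. In it the genes of chromosome X had a median log2 level of 0.66 against the fibroblast mean, where the 11 compared libraries were between -0.25 and -0.09, and Xist was at 1.49 CPM.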

How the results depend on the processing

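The counts of genes called between MNF_ciEPC and MEF_ciEPC (165 and 510) changed with the libraries used. Leaving out 1 series or library gave 48 to 163 and 74 to 355 genes. The counts were 75 and 233 with MEF_ciEPC libraries up to passage 5 and 759 and 985 from passage 10 on. They were 64 and 311 in limma on log2(TPM + 0.1), 278 and 584 with only the 2 ciEPC groups in the fit, 166 and 210 with 9 separate libraries, 411 and 323 in limma voom with the series as a random effect, and 294 and 616 with no fold minimum. RLE scaling (186 and 500), DESeq2 (242 and 657), limma on log2(TPM + 1) (118 and 390), no low-count filter (224 and 764) and a minimum count of 50 (164 and 460) stayed within 1.5 times. So did the fits without series 1 passage 2 (201 and 462) and with series 2 passage 22 (156 and 560). Leaving out 1 fibroblast library gave 796 to 1397 genes higher in MNF and 832 to 1370 higher in MEF, and leaving out 1 ciHep library 2400 to 2850 and 2066 to 2650. A sample left alone in its group was assumed to vary like the other groups. None of the 675 genes called between the ciEPCs was called the other way in any of these settings. Tnc (-6.17) changed sign from passage 10 on (0.82) and without series 1 (0.73), and with 1 series or MNF_ciEPC library left out it ran from -9.54 to 0.73. With series 2 passage 22 included, whose levels of stem cell genes are high, Pou5f1 (log2 difference -7.38), Nanog (log2 difference -7.44), Zfp42 (-2.69) and Gm38312 (-2.31) changed sign. Replicate numbers gave no pairing (correlation of same-numbered samples -0.0564); with a replicate block the counts were 159 and 496, and with the numbers crossed, an alternative chosen after seeing the data, 170 and 498. Depth limits genes of few counts, and only 12152887 scaled counts stand behind MNF_ciEPC.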
